A study of Mus musculus with 24 samples.

Results

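The genes described are 6 muscle ubiquitin ligases or adaptors of such ligases (Fbxo32, Trim63, Trim55, Trim54, Asb2 and Klhl40) and 3 FoxO transcription factors (Foxo1, Foxo3 and Foxo4). They were chosen by gene symbol, and all 9 were found among the 14912 genes of the table. All 9 passed the filter on low values, a mean of at least 0.1 FPKM, with 14026 genes in all. RNA-seq of the left ventricle was analysed for 24 wild-type mice, which the study describes as male C57BL/6J, and their age is not given in the sources used here. The study names more replicates per group, and these were not analysed here. The hypertensive-LVH group (12 mice) received angiotensin II (ANG II) from a subcutaneous osmotic mini-pump at 1500 ng/kg/min for 7 days, and the control group (12 mice) received saline from the same kind of pump for 7 days. Every heart was flushed with saline to remove blood before the ventricle was taken. The libraries are of bulk left ventricle, a tissue of cardiomyocytes, fibroblasts, vessels and immune cells.

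Ubiquitin ligases choose the proteins that are tagged with ubiquitin and broken down by the proteasome. In striated muscle Fbxo32 (atrogin-1, an F-box adaptor of a cullin-RING ligase) and Trim63 (MuRF1, a RING ligase of the sarcomere) are known as markers of muscle wasting, when their mRNA rises. Trim55 (MuRF2) and Trim54 (MuRF3) are close relatives of Trim63 that bind the sarcomere and microtubules. Asb2 is a substrate adaptor of cullin 5 ligases, and Klhl40 is a kelch protein of striated muscle that stabilises thin filament proteins. FoxO factors are held in the cytoplasm when Akt phosphorylates them. Once in the nucleus they are known to bind the promoters of Fbxo32, Trim63 and autophagy genes, so the mRNA level of a FoxO gene is not a measure of its activity.

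Promoter sequences of 6 members were found in a RefSeq table (GRCm38.p6), in 7 windows of 250 bases upstream of a transcript start, of which 2 belong to Asb2. Each was searched on both strands for a FoxO motif (GTAAACA or TGTTTAC), a glucocorticoid receptor half-site (AGAACA or TGTTCT) and the MCAT motif bound by TEAD factors (CATTCC or GGAATG). Of 32851 promoters of the same length that were searched, a part of the table, 3.17% held the FoxO letters, 16.1% the half-site and 12.6% the MCAT letters. The FoxO letters were found in the window of 1 member, Trim63, and the half-site in those of 2 members, Trim63 and Trim54. These are shown because Trim63 is compared with the FoxO factors below and Trim54 is its relative in the same family, with the matches in capitals.
Trim63, chr4:134314870-134315119, + strand: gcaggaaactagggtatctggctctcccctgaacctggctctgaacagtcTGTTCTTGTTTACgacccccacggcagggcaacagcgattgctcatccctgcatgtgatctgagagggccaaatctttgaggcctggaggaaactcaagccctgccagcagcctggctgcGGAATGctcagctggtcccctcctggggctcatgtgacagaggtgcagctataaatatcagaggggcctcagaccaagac
Trim54, chr5:31116362-31116611, + strand: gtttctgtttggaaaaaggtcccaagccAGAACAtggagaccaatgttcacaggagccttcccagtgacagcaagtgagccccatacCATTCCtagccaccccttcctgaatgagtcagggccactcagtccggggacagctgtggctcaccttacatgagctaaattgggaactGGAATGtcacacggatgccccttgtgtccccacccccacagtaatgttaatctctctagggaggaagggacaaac
In the Trim63 window the half-site lies 200 to 195 bases upstream of the start and is followed, with no base shared and none between, by the FoxO letters at 194 to 188. The MCAT letters lie at 80 to 75. In the Trim54 window the half-site lies 222 to 217 bases upstream and the MCAT letters at 163 to 158 and at 75 to 70, with no overlap. The MCAT letters were also found for Foxo3, 180 to 175 bases upstream of the start, in a window not shown. Members without a window could not be searched. Matching letters describe the sequence and were not tested as binding sites.

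The deposited values are FPKM (fragments of a gene scaled by transcript length and by the mapped fragments of the library) that had been adjusted, gene by gene, in 4 sets of samples. The sets, found from exact ties between samples, hold samples 1 to 3, then 4 to 6, then 7 to 9 and last 10 to 12, from each group alike. The labels do not name them, so comparisons are also given within the sets. The adjustment seems to have used the groups, and the p-values of the deposited values do not account for this. Negative values left by the adjustment make up 0.766% of the table, and 0 belong to the 9 members. Summed over genes, the controls had 482603 to 567972 and the ANG II samples 460720 to 515192, and the depth in fragments is unknown. ANG II sample 12 stands apart. It had the highest value of all 24 samples for 4 members and the lowest for 3, so results that rest on it are given with and without it. The extraction text of the labels names CRC cells, whereas the tissue label is left ventricle. All 10 cardiomyocyte markers were in the table, with a summed level of at least 43257 FPKM in every sample. Of the skeletal muscle markers, the fast or developmental myosins Myh1, Myh2, Myh4 and Myh8 were not in the table, and the other 8 summed to at most 35.8 FPKM in any sample.

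In the control group Asb2 had the highest level of the 9, at 253 ± 30.9 FPKM (SD, n = 12). Its mean over all 24 samples was above that of 97.7% of the genes tested. Trim54 followed at 148 ± 15 FPKM, Trim63 at 112 ± 22.6 FPKM and Trim55 at 52.5 ± 3.67 FPKM. The ranges of Asb2 and Trim54 did not overlap, nor did those of Trim63 and Trim55 or of Trim55 and Foxo3, whereas Trim54 was above Trim63 in 11 of 12 samples with overlapping ranges. Foxo3 (23.8 ± 4.23 FPKM), Foxo4 (22.6 ± 1.25 FPKM) and Fbxo32 (18.2 ± 7.74 FPKM) came next and overlapped each other. Klhl40 (8.59 ± 1.25 FPKM) and Foxo1 (8.24 ± 1.51 FPKM) were the lowest, and Klhl40 was above Foxo1 in 6 of 12 samples, so their order was within the spread. FPKM is per transcript length, but these values were also adjusted gene by gene in the sets, so the order of levels between genes is approximate. In the hypertensive-LVH group the first 7 places were the same, Asb2 and Trim54 overlapped, and Foxo1 (9.26 ± 1.63 FPKM) and Klhl40 (8.32 ± 1.68 FPKM) changed places, again with overlapping ranges.

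The first comparison asks which members differed between ANG II and saline. Foxo4 and Asb2 were lower in the hypertensive-LVH group and 7 members did not pass the test. With limma on log2(FPKM + 1) and Benjamini-Hochberg adjustment over all genes tested, 2 of 9 members had an adjusted p under 0.05, against 33.5% of all genes tested. Of the members 0 were called higher, against 20.9% of all genes, and 2 lower, against 12.6%. At an unadjusted p under 0.05 the counts were also 0 higher and 2 lower, both by limma and by a Wilcoxon rank-sum test. At an adjusted p under 0.05 the Wilcoxon test called 0 higher and 1, Foxo4, lower. The shares of all genes beside these counts are not given here. The thresholds of the study, an adjusted p under 0.05 together with a log2 change over 0.5 in size, were met by 0 members and by 5.92% of all genes. The median log2 fold change was -0.08 over the members and 0.05 over all genes tested, and the latter was 0.02 with median-ratio scaling and -0.02 with quantile normalization. For 8 members the 95% interval lay within 0.5 on the log2 scale either way, and Fbxo32 was the exception.

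**Figure D1:**
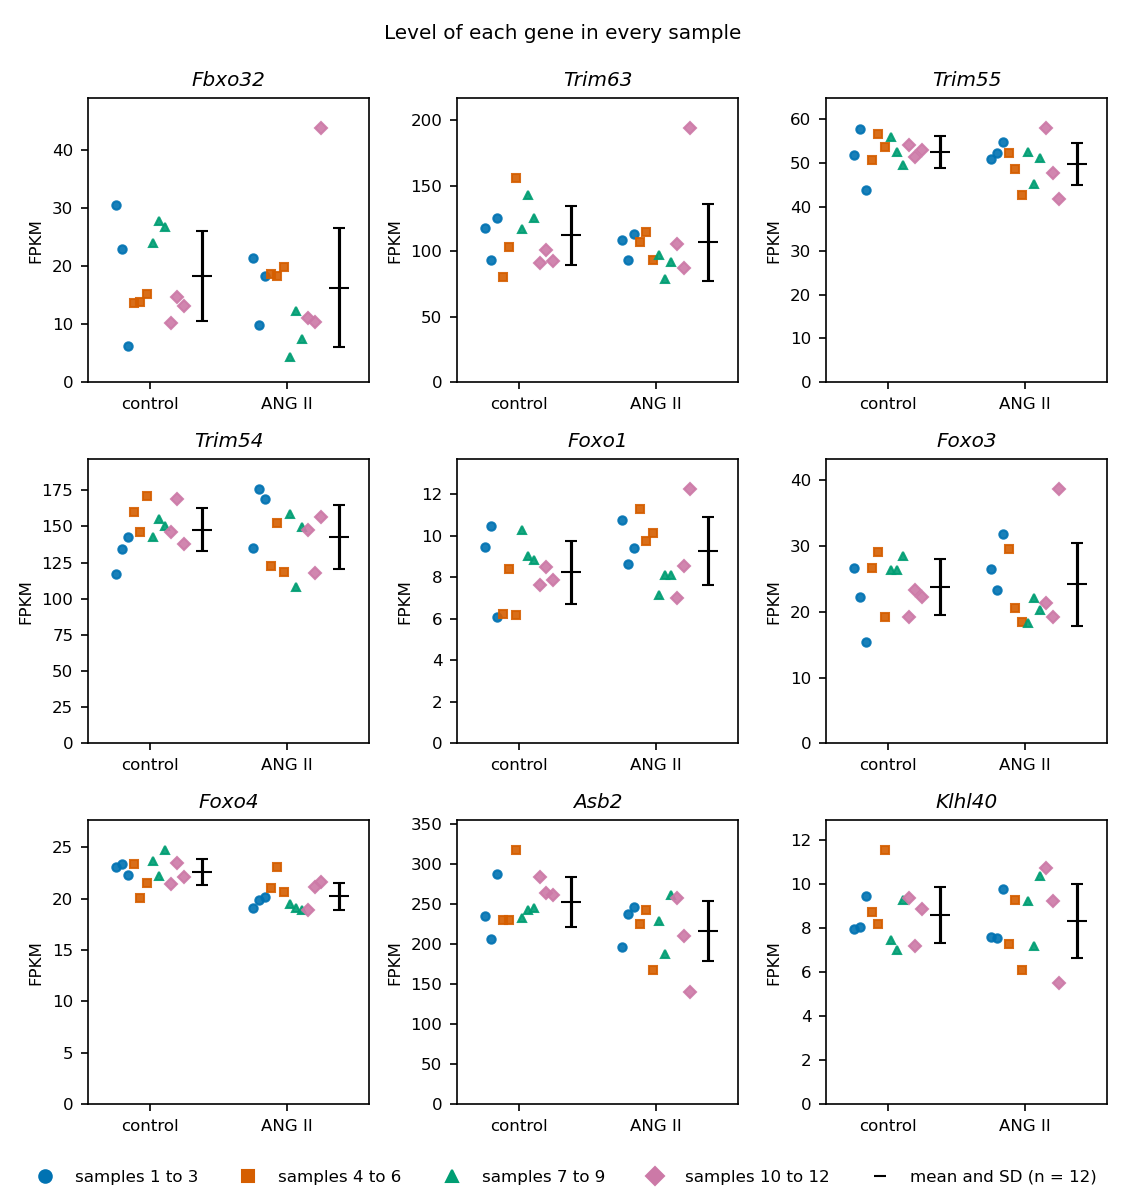
Level of each of the 9 genes (vertical axes, FPKM from 0) in the 12 control and 12 ANG II samples. Each point is a sample, its shape and colour give its set, and the bar to the right is the mean with the SD. Foxo4 and Asb2 are shifted down with overlapping groups, Fbxo32 varies widely in both groups, and ANG II sample 12, the last diamond, is highest for Fbxo32 (43.6 FPKM), Trim63 (194 FPKM), Foxo1 (12.2 FPKM) and Foxo3 (38.6 FPKM).

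Among the FoxO factors, Foxo4 (X chromosome, 101254528 to 101260873, GRCm38) fell. Its level in controls was 20.0 to 24.7 FPKM with a median of 22.7, and with ANG II it was 18.8 to 23.0 FPKM with a median of 20.0. The groups overlapped, but 11 of 12 ANG II samples lay below the control median, 6 lay below the lowest control sample and 5 control samples lay above the highest ANG II sample. The log2 fold change was -0.15 ± 0.04 (SE), the mean fell by 10.5%, and the adjusted p was 0.00318 (limma). Foxo4 was lower in 4 of 4 sets, as were 12.8% of all genes. The difference on the log2 scale was -0.21 (samples 1 to 3), -0.28 (samples 7 to 9) and -0.12 (samples 10 to 12), but only -0.0038 (samples 4 to 6). An exact permutation of labels inside each set gave p = 9.13e-04 (two-sided, adjusted over all genes 0.00771), and 27.4% of all genes passed this test. Without samples 7 to 9 of each group the log2 fold change was -0.11 and the adjusted p 0.0683 (limma). The coefficient of variation of Foxo4 was 5.51% in the control group.

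Foxo1 did not pass the test. Its level ran from 6.07 to 10.5 FPKM (median 8.44) in the control group and from 7.00 to 12.2 FPKM (median 9.04) in the hypertensive-LVH group. ANG II samples were above the control median in 8 of 12 cases and 3 lay above the highest control. The log2 fold change was 0.15 ± 0.09 (adjusted p = 0.205, limma), with an interval from -0.04 to 0.34. Leaving out samples 7 to 9 gave 0.28 (adjusted p = 0.0535, limma). Foxo3, the FoxO factor best known for inducing atrophy genes, had nearly equal means of 23.8 ± 4.23 and 24.2 ± 6.27 FPKM (n = 12 each). It ran from 15.4 to 29.1 FPKM (median 24.9) in controls and from 18.4 to 38.6 FPKM (median 21.7) with ANG II, with 8 of 12 ANG II samples below the control median. The highest ANG II value was that of sample 12. The log2 fold change of Foxo3 was 0.01 ± 0.12 (adjusted p = 0.969, limma) with an interval from -0.23 to 0.24, and -0.06 without sample 12.

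Fbxo32, the wasting ligase, varied most. It ran from 6.29 to 30.4 FPKM (median 14.9) in the control group and from 4.33 to 43.6 FPKM (median 15.3) in the hypertensive-LVH group. The groups overlapped almost completely, with 6 ANG II samples on each side of the control median. Its coefficient of variation was 42.5% in controls and 62.5% with ANG II. The log2 fold change was -0.24 ± 0.27 (adjusted p = 0.525, limma), and the interval from -0.80 to 0.33 spans a fall and a rise. Without sample 12 it was -0.38 ± 0.25 (adjusted p = 0.246, limma).

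Trim63, the other wasting ligase, ran from 80.8 to 156 FPKM (median 110) in the control group and from 79.1 to 194 FPKM (median 101) with ANG II. It lay below the control median in 9 of 12 ANG II samples, and the highest of the other 3 was sample 12. The log2 fold change was -0.08 ± 0.12 (adjusted p = 0.620, limma), with an interval from -0.32 to 0.16, and -0.16 ± 0.09 (adjusted p = 0.186, limma) without sample 12. Trim55 was the steadiest ligase, at 43.7 to 57.6 FPKM (median 52.6) in controls and 41.8 to 57.8 FPKM (median 51.0) with ANG II. Although 10 of 12 ANG II samples were below the control median, its log2 fold change of -0.08 ± 0.05 did not pass (adjusted p = 0.225, limma; interval -0.18 to 0.02). Trim54 ran from 117 to 171 FPKM (median 146) in controls and from 108 to 176 FPKM (median 149) with ANG II. Its groups overlapped, and the log2 fold change was -0.06 ± 0.08 (adjusted p = 0.562, limma; interval -0.21 to 0.10). Within the sets it ran from -0.28 in samples 4 to 6 to 0.28 in samples 1 to 3.

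Asb2 was called lower, close to the threshold. Its level ran from 207 to 317 FPKM (median 244) in the control group and from 140 to 261 FPKM (median 227) in the hypertensive-LVH group. The groups overlapped, with 9 of 12 ANG II samples below the control median, 4 below the lowest control and 5 control samples above the highest ANG II sample. The log2 fold change was -0.23 ± 0.09 (adjusted p = 0.0446, limma), and the mean fell by 14.3%. The lowest sample was again ANG II sample 12, and without it the change was -0.18 ± 0.08 with an adjusted p of 0.0696 (limma). Of the 24 fits that left out 1 mouse, 12 did not pass. Asb2 was lower in 4 of 4 sets, and the exact permutation test within the sets gave p = 0.0245 (two-sided, adjusted over all genes 0.0748). Klhl40 ran from 7.02 to 11.5 FPKM (median 8.46) in controls and from 5.51 to 10.7 FPKM (median 8.41) with ANG II. Its groups overlapped and its log2 fold change was -0.05 ± 0.09 (adjusted p = 0.668, limma; interval -0.24 to 0.13).

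These are bulk libraries, in which fewer cells of a type and less RNA per cell cannot be told apart. Of the 10 cardiomyocyte markers 6 were lower with ANG II and 1 was higher, and their sum ran from 57351 to 77523 FPKM in controls and from 43257 to 63754 FPKM with ANG II. All 8 macrophage markers and 5 of 9 fibroblast markers were higher. Their part in the lower Foxo4 and Asb2 was not tested.

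A ratio of genes within a sample is free of a factor common to all genes of that sample, but not of the scaling of single genes in the sets. The log2 ratio of Trim63 to Trim55 was 1.06 ± 0.32 in controls and 1.06 ± 0.38 with ANG II (SD, n = 12 each). A permutation test of the difference gave p = 0.995 (two-sided, adjusted over 3 ratios 0.995). The ratio of Trim63 to Fbxo32 was 2.65 ± 0.62 and 2.81 ± 0.60 (permutation test, p = 0.542, adjusted 0.813) and that of Foxo1 to Foxo3 was -1.42 ± 0.24 and -1.27 ± 0.24 (permutation test, p = 0.151, adjusted 0.452). No shift in these ratios passed the test, and 9 of 12 ANG II samples were above the control median for Foxo1 to Foxo3. The sets differed in sign for each ratio. In the order of the sets, the log2 difference of Trim63 to Trim55 was -0.14, 0.10, -0.43 and 0.46, that of Trim63 to Fbxo32 -0.01, -0.45, 1.16 and -0.08, and that of Foxo1 to Foxo3 -0.19, 0.66, 0.17 and -0.06. Exact permutation tests within the sets gave p = 0.995, 0.570 and 0.180 (two-sided, adjusted over 3 ratios 0.995, 0.855 and 0.540).

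**Figure D2:**
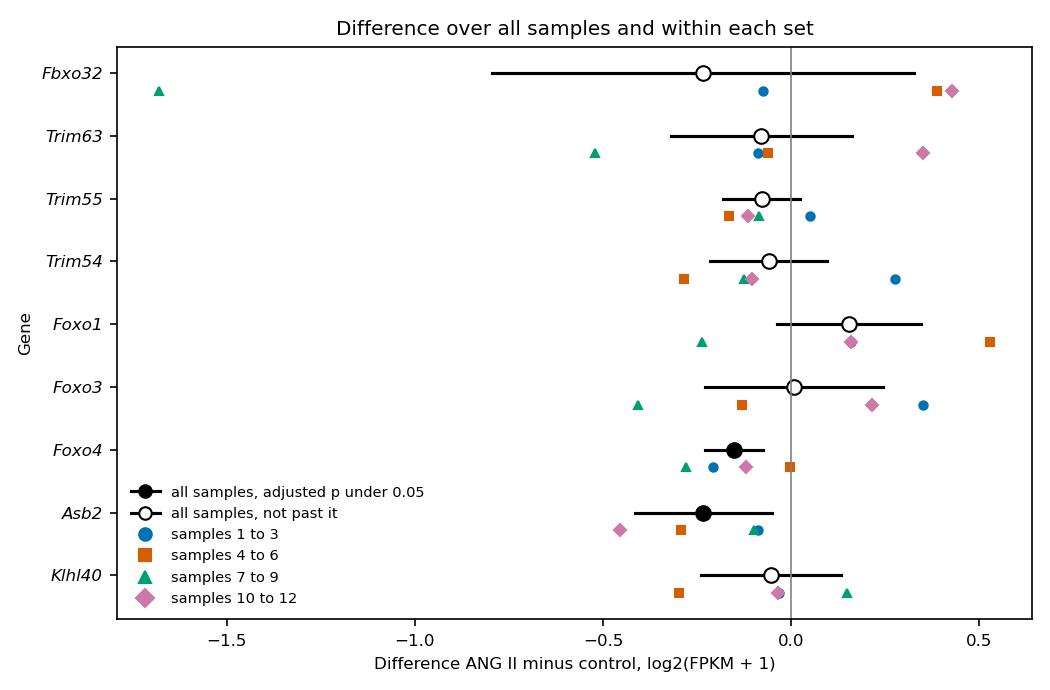
Difference between ANG II and control for the 9 genes on log2(FPKM + 1). The large circle and line are the limma estimate over all samples and its 95% interval, filled where the adjusted p was under 0.05 (Foxo4, -0.15, and Asb2, -0.23), and the small symbols are the differences within the 4 sets. The sets of Foxo4 and Asb2 lie on the same side of 0, whereas those of Fbxo32 run from -1.68 to 0.43.

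The sets gave opposite differences for Fbxo32 and Foxo1. In samples 7 to 9 the level of Fbxo32 was 23.9 to 27.8 FPKM in the 3 controls and 4.33 to 12.3 FPKM in the 3 ANG II samples. The groups did not overlap, and the log2 difference was -1.68 ± 0.28 (adjusted p = 0.0200 in limma on this set alone, where 4.33% of all genes passed). In samples 4 to 6 it was 13.7 to 15.2 FPKM in controls and 18.3 to 19.8 FPKM with ANG II. Here every ANG II sample was above every control, as in 38.5% of all genes, and the log2 difference was 0.39 ± 0.09 (adjusted p = 0.0173 in limma on this set alone, where 27.1% of all genes passed). In samples 1 to 3 and 10 to 12 the groups overlapped, at -0.08 and 0.43. Foxo1 was separated in the same sets and directions. It was 6.19 to 8.39 FPKM in controls and 9.74 to 11.3 FPKM with ANG II in samples 4 to 6, a log2 difference of 0.53 ± 0.14 (adjusted p = 0.0225, limma on this set alone). In samples 7 to 9 it was 8.84 to 10.3 FPKM in controls and 7.14 to 8.13 FPKM with ANG II, a log2 difference of -0.24 ± 0.11 (adjusted p = 0.261, limma on this set alone). A limma F test of the difference between sets gave adjusted p = 0.110 for Fbxo32 (unadjusted 0.0161) and 0.173 for Foxo1 (unadjusted 0.0379). It passed for 0 of 9 members and for 7.49% of all genes, and the unadjusted p was under 0.05 for 2 of 9 members and 25% of all genes. Full separation in opposite directions in 2 sets was found for 2 of 9 members and for 6.95% of all genes.

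Samples 7 to 9 gave the lowest of the 4 differences for Trim63, Foxo3 and Foxo4 too. Trim63 there was 117 to 143 FPKM in controls and 79.1 to 97.4 FPKM with ANG II, with no overlap (-0.52 ± 0.11 on the log2 scale, adjusted p = 0.0454 in limma on this set alone). Foxo3 was 26.4 to 28.5 FPKM in controls and 18.4 to 22.1 FPKM with ANG II (-0.41 ± 0.09, adjusted p = 0.0545, limma on this set alone). With Foxo4 and the genes above, 5 of 9 members had every ANG II sample below every control in this set, against 16.8% of all genes. Leaving these samples out, 0 of 9 members were called in limma, against 27.1% of all genes. At an unadjusted p under 0.05, 1 member was higher, against 29.7% of all genes, and 2 were lower, against 12.7%. Trim55, Trim54, Asb2 and Klhl40 overlapped in samples 7 to 9.

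The adjustment scaled the values of each set, and the scale could be recovered from the spacing of the values for 95.6% of the genes tested, all 9 members included. This gives differences within a set in FPKM before the adjustment, but leaves unknown which group of a set lay apart from the other sets. The separations of Fbxo32 (3.39 FPKM in samples 4 to 6 and -13.8 FPKM in samples 7 to 9) and Foxo1 (3.73 and -0.94 FPKM) had the same direction before the adjustment. Averaged over sets, the difference of Foxo4 was -2.23 FPKM, with every set lower and an exact permutation p within sets of 8.0e-04 (two-sided, adjusted over all genes 0.00762), where 27.6% of all genes passed. That of Asb2 was -37.5 FPKM (exact permutation p = 0.0388, adjusted over all genes 0.101). For Fbxo32 it was 0.05 FPKM, for Trim63 4.89 FPKM and for Foxo3 1.42 FPKM, and these signs rested on ANG II sample 12, without which the differences were -4.37, -8.71 and -0.63 FPKM.

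ANG II sample 12 was the highest of 24 for Fbxo32 at 43.6 FPKM, where the next sample had 30.4 FPKM. It was also highest for Trim63 (194 FPKM, next 156), Foxo3 (38.6 FPKM, next 31.8) and Foxo1 (12.2 FPKM, next 11.3). The same sample was the lowest of 24 for Asb2 (140 FPKM, next 168), Trim55 (41.8 FPKM, next 42.7) and Klhl40 (5.51 FPKM, next 6.12). Over all genes tested it was the highest for 14% and the lowest for 13.4%. The wasting ligases with Foxo1 and Foxo3 were thus up, while Foxo4 was in the middle (21.6 FPKM), and 2 adaptors of striated muscle and Trim55 down, in a single mouse. Set against the mean of ANG II samples 10 and 11 before the adjustment, it was 53.0 FPKM higher for Fbxo32, 163 FPKM higher for Trim63 and 24.6 FPKM higher for Foxo3, and the difference for Asb2 was -106 FPKM. Among named genes of the lists below, it was highest of 24 for Fkbp5 (49.6 FPKM) and Cdkn1a (277 FPKM), the cell cycle inhibitor p21. It was highest too for Itch, Ubb, Bnip3, Sqstm1 and Sgk1, and lowest for Stub1, Klhl30, Ube2d1, Rnf7, Map1lc3a and Ckm. Its values summed over genes came to 460720 FPKM, the lowest of all 24 samples. Its median correlation with the other ANG II samples over all genes was 0.978, the lowest of that group, where the highest was 0.990, and control samples 4 and 6 had the same 0.978 with their own group. Its marker sums of macrophages (291 FPKM), endothelial cells (367 FPKM) and smooth muscle (289 FPKM) were the lowest of the ANG II samples, and its sum of cardiomyocyte markers was 47458 FPKM. Their part in these values was not tested.

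The second comparison asks whether the wasting ligases followed the FoxO factors from mouse to mouse, with the group means removed over 24 samples and p-values adjusted over 6 relations. Fbxo32 followed Foxo1 with r = 0.815 (permutation p = 1e-05, the smallest that 100000 resamples can give, adjusted 6e-05) and rho = 0.815 (permutation p = 2e-05). With the means of each group in each set removed r was 0.798, without the 2 samples with the most extreme Foxo1 0.743, and without ANG II sample 12 0.784. It was 0.881 within the hypertensive-LVH group and 0.754 within the control group. The permutation p asks only whether the pair is related at all. With group and set means removed, other genes were closer to Fbxo32 (Sp4, r = 0.93) and to Foxo1 (Impad1, r = 0.95). How many of all genes reach such an r was not counted. Fbxo32 also followed Foxo3, with r = 0.731 (permutation p = 6e-05, adjusted 1.8e-04) and rho = 0.624 (permutation p = 0.00134). There r was 0.765 with group and set means removed, 0.536 without the 2 farthest samples and 0.641 without sample 12. Foxo4 and Fbxo32 had r = 0.489 (permutation p = 0.0152, adjusted 0.0305) and rho = 0.470 (permutation p = 0.0212), but 0.249 with group and set means removed (permutation test, adjusted p = 0.359), so this relation did not hold within the sets. Without sample 12 it was 0.430 (permutation test, adjusted p = 0.0806).

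For Trim63 none of the 3 relations passed. With Foxo1 r was 0.302 (permutation p = 0.151, adjusted 0.181; rho 0.268), with Foxo3 0.397 (permutation p = 0.0544, adjusted 0.0816; rho 0.310) and with Foxo4 0.234 (permutation p = 0.275, adjusted 0.275; rho 0.277). All 3 values rested on ANG II sample 12, without which they were 0.0938 for Foxo1, 0.0949 for Foxo3 and 0.0883 for Foxo4. Within the hypertensive-LVH group, which holds that sample, r was 0.627 with Foxo1, 0.762 with Foxo3 and 0.465 with Foxo4, and within the control group -0.0422, -0.116 and -0.0611. Leaving out control sample 6 gave 0.478 for Foxo1 and 0.517 for Foxo3, both with an adjusted p of 0.0234 (permutation test), and for Foxo3 r also passed without control sample 3 (0.509) or control sample 4 (0.470). With quantile normalization r rose to 0.530 for Foxo1 and 0.521 for Foxo3, both with an adjusted p of 0.0133 (permutation test). The difference between the relations of Fbxo32 and of Trim63 was not tested.

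**Figure D3:**
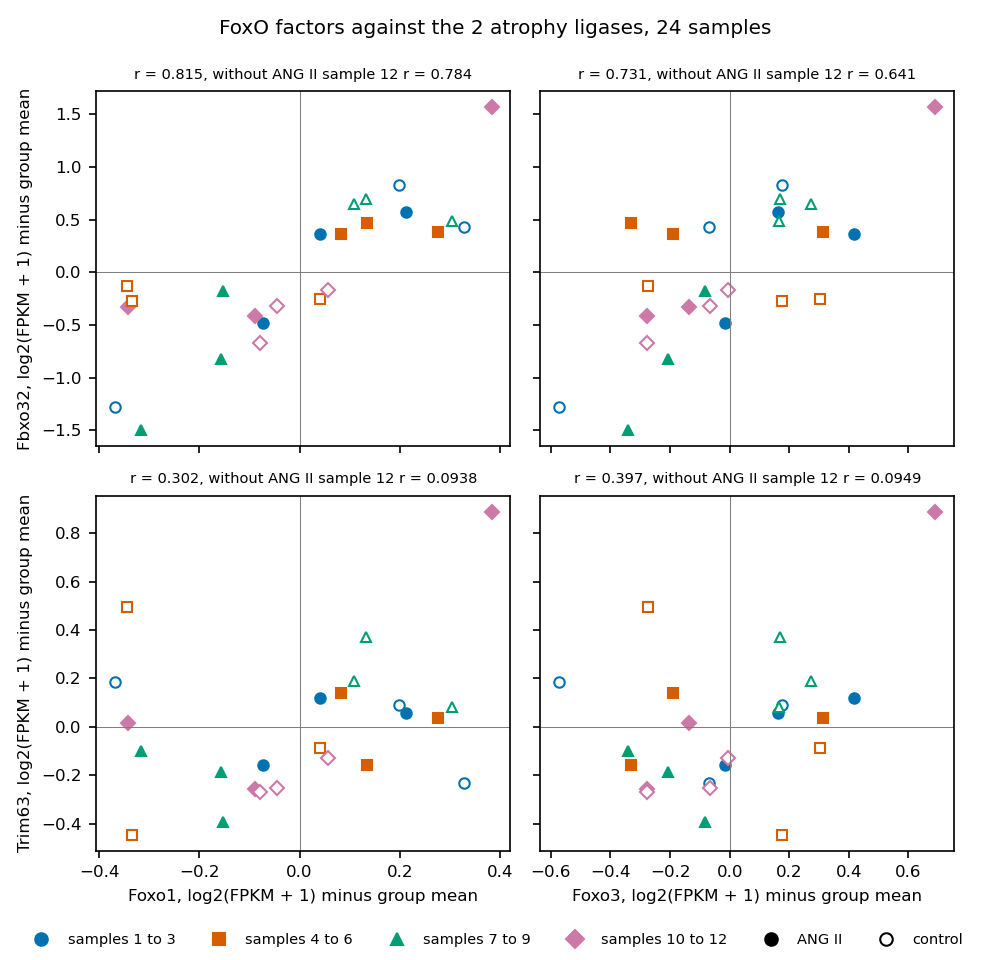
Foxo1 and Foxo3 (horizontal axes) against Fbxo32 and Trim63 (vertical axes) in 24 samples, each as log2(FPKM + 1) minus the mean of its group. Filled symbols are ANG II, open symbols control, and shape and colour give the set. Fbxo32 rises with Foxo1 (r = 0.815) and Foxo3 (r = 0.731) in both groups, whereas in the Trim63 panels the filled diamond at the upper right is ANG II sample 12, without which r is 0.0938 and 0.0949.

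The members fell into groups that varied together when group and set means were removed. These correlations over 24 samples are a description, since the samples share their library and scaling. Fbxo32, Foxo1 and Foxo3 formed a first group, with r of 0.80, 0.76 and 0.76 between pairs. Asb2 and Klhl40 formed another, with r = 0.88, and ran against it, with r = -0.72 between Foxo1 and Asb2 and -0.65 between Fbxo32 and Asb2. Trim63, Trim55, Trim54 and Foxo4 had no r above 0.47 with any other member.

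Among 11449 other genes with a mean of at least 1 FPKM, those most like each member were found by the same measure, again as a description. Fbxo32 was most like Sp4 (r = 0.93), Mpp5 (0.92) and Dmxl2 (0.91), and Foxo1 was most like Impad1 (0.95), Sp1 (0.94) and Kidins220 (0.93). Foxo3 was most like Vps13d (0.91), Sbf2 (0.88) and a gene whose symbol a spreadsheet had turned into the date 6-Mar (0.88). Asb2 had the closest of all, Cand2 (0.96), known as a cullin-associated protein of muscle, then Dcakd (0.95) and Bcs1l (0.94), a chaperone of respiratory complex assembly. Klhl40 was most like Snap47 (0.89), Pgap2 (0.89) and Rps6ka2 (0.89). For Trim63 they were Zfp36 (0.89), which destabilises short-lived mRNAs, Slc25a25 (0.85) and Irs2 (0.84), an insulin receptor substrate upstream of Akt. Ppp1r37 (0.82) and Myoz2 (0.81), a Z-disc protein, were among the 3 genes most like Trim54, and Trim55 was most like Lgr6 (0.88), Prrc2b (0.83) and Gbf1 (0.83). No gene was very close to Foxo4, for which the values were 0.70 for Fam177a, 0.67 for Ift52 and 0.66 for Dis3l.

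The other genes of the pathway were taken from 8 lists, whose counts can be read against the 20.9% of all genes tested that were higher and the 12.6% that were lower, with a median log2 fold change of 0.05. Of 31 other ASB, KLHL and KBTBD adaptors, 0 were higher, 11 were lower and 20 did not pass (median log2 fold change -0.08). Neither limma without adjustment (p under 0.05) nor the Wilcoxon test (adjusted p under 0.05) called any of them higher, counts of 0 in each. The shares of all genes in these tests are not given here. Klhl38 fell from 13.1 ± 3.50 to 7.39 ± 3.50 FPKM (log2 fold change -0.82 ± 0.18, adjusted p = 0.00153, limma), and Klhl30 fell from 23.6 ± 3.21 to 16.0 ± 3.28 FPKM (-0.56 ± 0.10, adjusted p = 1.9e-04, limma). Both were lower in each of the 4 sets, as Asb2 was. Of 23 other ubiquitin ligases of striated muscle, 4 were higher and 3 lower. Among them Pdzrn3 (log2 fold change 0.29) and Itch (0.24) rose, and Rnf207 (-0.35), a RING protein linked to cardiac repolarization, and the chaperone-bound ligase Stub1 (-0.18) fell. Of 25 cullin scaffolds, ubiquitin genes and E1 and E2 enzymes, 6 were higher and 4 lower. The polyubiquitin gene Ubb rose (0.18) with the E2 enzyme gene Ube2j1 (0.21), while Ube2d1, an E2 that works with MuRF1 in vitro, fell (-0.23), as did the RING subunit Rnf7 (-0.16). Skp1, Elob and Eloc were not in the table under these names, nor Tceb1 and Tceb2.

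**Figure D4:**
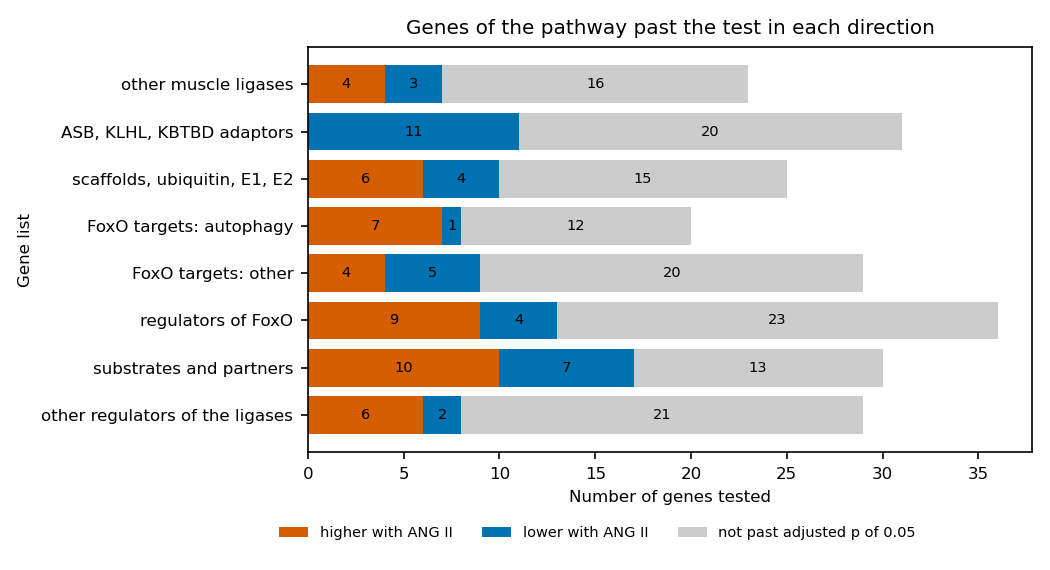
Number of genes tested (horizontal axis) in each of 8 lists around the members, split into those higher with ANG II, those lower and those not past an adjusted p of 0.05 in limma. The list of ASB, KLHL and KBTBD adaptors has 0 higher and 11 lower of 31, and the autophagy list has 7 higher and 1 lower of 20.

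Genes described as FoxO targets moved in both directions. Of 20 autophagy genes, 7 were higher and 1 lower (median log2 fold change 0.06). Bnip3, a mitophagy receptor, rose from 118 ± 8.96 to 163 ± 38.4 FPKM (0.43 ± 0.09, adjusted p = 7.7e-04, limma), and the autophagy receptor Sqstm1 rose from 251 ± 28.7 to 310 ± 45.6 FPKM (0.30 ± 0.07, adjusted p = 0.00305, limma). The LC3 gene Map1lc3a fell (-0.22 ± 0.06, adjusted p = 0.00808, limma). Without samples 4 to 6 of each group 3 autophagy genes were called, but the share of all genes called in that smaller fit is not given here. Of 29 other described targets, 4 were higher and 5 lower (median 0.04), without Depp1, which was not in the table. Cdkn1a (0.89) and Gadd45b (0.78), a stress gene, rose, whereas Gadd45a (-0.80), of the same family, and Sod2 (-0.41), the mitochondrial superoxide dismutase, fell. Cdkn1a was lower with ANG II in samples 4 to 6, by -0.79 on the log2 scale, and higher in the other 3 sets.

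Of 36 kinases, phosphatases and other regulators of the FoxO factors, 9 were higher and 4 lower (median 0.12). Akt2, an insulin-responsive kinase that phosphorylates FoxO factors, fell from 107 ± 4.64 to 84.4 ± 4.55 FPKM (SD, n = 12 each). The groups did not overlap, and the log2 fold change was -0.34 ± 0.03 (adjusted p = 5.0e-07, limma), between -0.38 and -0.28 in the 4 sets. Sgk1, another kinase of FoxO factors, rose (0.39 ± 0.11, adjusted p = 0.00613, limma) with Ywhah (0.31), whose product binds phosphorylated proteins, and Phlpp1, a phosphatase of Akt, fell (-0.20). Of 29 other regulators of the wasting ligases, 6 were higher and 2 lower. Fkbp5 (0.93) and Tnfrsf12a (0.75), the receptor of TWEAK, rose, and the transcription factors Smad3 (-0.18) and Mef2d (-0.12) fell. Myog and Pax7 were not in the table.

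Of 30 proteins described as substrates or partners of the members, 10 were higher and 7 lower (median 0.08), and Myod1 was not in the table. Des, the gene of the intermediate filament desmin, rose from 1164 ± 79.3 to 1655 ± 192 FPKM (0.50 ± 0.06, adjusted p = 3.0e-06, limma). Tnni3, cardiac troponin I and a described substrate of MuRF1, fell from 6458 ± 618 to 4211 ± 609 FPKM (-0.63 ± 0.08, adjusted p = 8.1e-06, limma). In both the groups did not overlap. Ckm, muscle creatine kinase, fell by 0.56 ± 0.13 on the log2 scale. Myh7 rose from 83.0 ± 83.0 to 415 ± 163 FPKM, with a log2 fold change of 3.36 that was 9.05 in samples 4 to 6, where 3 control values were negative and set to 0, and 1.19 to 1.75 in the other sets. Tnni3 is also among the cardiomyocyte markers, so its change stands in both counts.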

How the data were processed

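Poly(A) RNA of 24 left ventricles, 12 from each group by the labels, was sequenced, and the processing notes of the submitters name HISAT, Bowtie2 and RSEM. The build is not given in the sources used here. The authors deposited 1 adjusted FPKM value per gene and sample, with 14912 genes. The unit was expected to be plain FPKM, but 2741 values are negative. Samples were joined into sets where at least 100 genes were tied within a group (282 to 600 ties within sets, at most 82 between). Each gene's scale per set was read from the spacing of its values, which had been rounded to 0.01 FPKM earlier (13412 genes solved). It was tested on simulated data first. The study calls the samples biological replicates and the labels name no animal, and where samples share an animal the p-values measure only the spread between samples.

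Negative values were set to 0 for log2(FPKM + 1) and kept for printed levels. The 1 added understates changes of low genes, and values set to 0 can enlarge changes. Genes with a mean of at least 0.1 FPKM were fitted with limma 3.58.1 (R 4.3.3, intensity trend, group only, Benjamini-Hochberg over all genes). Permutations, two-sided, used Python 3.11.15 with scipy 1.17.1 and drew 100000 resamples, and the exact tests within sets used all 160000 relabelings. The adjustment itself seems to have used the groups, which neither the limma fits by group nor these permutations account for. Named genes were the 2 with the largest rise and the 2 with the largest fall in each list past the threshold, and the 3 most like each member, of which 1 is not reported here. The values of other genes in sample 12 were named after they were seen. The members and lists were chosen with earlier results of these data known. The exact tests within sets were planned with adjustment over the 9 members and are given adjusted over all genes. Fits of single sets and the test between sets were added after the data were seen. Positions are from GENCODE for GRCm38 by symbol. Alternatives were median-ratio or quantile scaling, 0.1 as pseudocount, a filter at a mean of 1 or none, no trend, a Wilcoxon rank-sum test, the replicate block, a set term, and leaving out sets and mice.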

Additional observations from a re-analysis of the deposited data

Results flagged for a closer look

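For 2 members every ANG II sample lay above every control in a set of samples and below every control in another. For Fbxo32 the log2 difference was 0.387 in samples 4 to 6 and -1.68 in samples 7 to 9, and for Foxo1 it was 0.530 and -0.238. The limma F test of the difference between the 4 sets, added after the data were seen, gave adjusted p-values of 0.110 and 0.173, so neither passed. The sets are not the study's groups, and 6.95% of all genes tested had the same pattern.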

How the results depend on the processing

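Foxo4 kept its direction in all alternatives and its adjusted p under 0.05 in all but the fit without samples 7 to 9 (-0.11), and with each mouse left out it was -0.17 to -0.14. Asb2 kept its direction but did not pass by the Wilcoxon test, with the replicate block or with a set term (log2 fold change -0.23 in each), nor without samples 1 to 3 (-0.28), 4 to 6 (-0.21), 7 to 9 (-0.28) or 10 to 12 (-0.16), nor before the adjustment (-37.5 FPKM). With each mouse left out it was -0.26 to -0.18. The count of members called lower was 1 by the Wilcoxon test, with the block, with a set term and without samples 1 to 3, 4 to 6 or 10 to 12, and 0 without samples 7 to 9, where limma gave an unadjusted p under 0.05 for 2 lower members. It was 1 to 2 with each mouse left out.

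Directions turned for members that had not passed. Fbxo32 was 0.25 and Trim63 0.0670 without samples 7 to 9, and 0.0483 and 4.89 FPKM before the adjustment. Trim54 was 0.0149 and Klhl40 0.0273 without samples 4 to 6. Foxo3 was -0.0403 with median-ratio and -0.0429 with quantile scaling, -0.11 without samples 1 to 3 and -0.0621 without samples 10 to 12, and -0.0558 to 0.0381 with each mouse left out. The log2 ratio of Trim63 to Trim55 was 0.0356 with quantile scaling and -0.10 to 0.0412 with each mouse left out. With quantile scaling the r of Trim63 was 0.530 with Foxo1 and 0.521 with Foxo3, past the threshold. With each mouse left out these were 0.0938 to 0.478 and 0.0949 to 0.517. The r of Foxo4 with Fbxo32 did not pass with quantile scaling (0.365), with group and set means removed (0.249) or without the 2 farthest samples (0.448), and was 0.430 to 0.545 with each mouse left out. Without samples 4 to 6, 3 other ligases, 6 scaffold genes, 3 autophagy genes and 6 FoxO regulators were called, and with a set term 5 other regulators. The shares of all genes called in these fits are not given here, so a loss particular to a list cannot be told from a general one. Without ANG II sample 12, added after the data were seen as was its omission before the adjustment, no list count moved by over 1.5 times. The cause of these changes was not tested.

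Deviations of same-numbered samples had correlations from -0.557 to -0.00109 over 12 pairs, with 0 over 0.1. Of the ANG II samples 0 were closest to their own number. Same-numbered samples lie in the same set, and an adjustment that centres a set can itself make such correlations negative. These values therefore cannot decide whether the replicate numbers pair the samples. With the replicate block 2824 genes were called against 4697, Foxo4 had an adjusted p of 0.0392 and Asb2 0.0978 (limma, log2 fold change -0.23). Depth is unknown, and no member had a sample below 1 FPKM.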
